A study of Mus musculus with 9 samples.

Results

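Tight junctions are belts of protein at the top of the lateral membranes of epithelial cells, where they close the space between neighboring cells and keep the apical and basolateral membranes apart. Claudins are the membrane proteins that form the strands and set which ions pass, occludin and JAM-A sit in the same belt, and the zonula occludens (ZO) proteins tie these membrane proteins to actin. In the mammary gland the junctions between alveolar cells are leaky during pregnancy and close around the onset of lactation, so that milk components stay in the lumen. The genes described here are Cldn1, Cldn3, Cldn4, Cldn7 and Cldn8 (claudins), Ocln (occludin), F11r (JAM-A), Tjp1 (ZO-1) and Tjp3 (ZO-3), taken by name. These 9 genes, of 27962 distinct names in the array design, were measured by 12 of 41174 probes, with 2 probes each for Cldn1, Ocln and Tjp1 and 1 probe for each of the other 6 genes.

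RNA was taken from mammary gland number 4 of 4 wild type (WT) dams and 5 hNAG-1 dams on lactation day 2 (L2) after the fourth litter, and each dam had its own 1-color Agilent array. The hNAG-1 dams carry a transgene that expresses human NAG-1, a secreted TGF-β family protein also called GDF15, in all tissues. The labels give the strain of both genotypes as C57BL/7 and do not say which of the transgenic lines a dam came from. Values below are the background-subtracted intensities of the scanner output, scaled so that the 75th percentile of each array is 1000, and a difference is hNAG-1 minus WT on the log2 scale. The brightness of one probe cannot be set against that of another, so only arrays are compared.

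The 9 arrays had 59.8% to 76.1% of their features well above background, and their 75th percentiles before scaling ran from 509 to 1133. Of the marker lists for the tissue, 10 of 10 luminal epithelium genes and 8 of 8 milk protein genes were well above background on all 9 arrays. Of the 3 slides used, slide 1 carried only the array of WT 1. Dams hNAG-1 1 to 4 were on slide 2, and slide 3 took WT 2, WT 3 and WT 4 together with hNAG-1 5. WT 2 stood apart. The mean centered log2 intensity of 8 lymphocyte markers was 3.01 on that array and between -1.30 and 0.79 on the other arrays, and its luminal epithelium, milk protein and myoepithelial means, at -0.51, -0.47 and -0.84, were each the lowest of the 9 arrays. In RNA of a whole gland, fewer cells of a type and less RNA per cell cannot be told apart. WT 1 was lowest for adipocyte markers, at -1.05 against -0.40 to 0.40 on the other arrays. With 4 and 5 arrays a group, single dams moved many of the differences below.

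The probes that matter most for reading the values are that of the largest positive difference (Cldn7) and those that differ from a second probe of the same gene (Ocln and Tjp1). Their sequences are shown as the array design gives them, with positions in the mouse build mm7.
Cldn7 A_51_P165185, chr11:70048852-70049161, plus strand: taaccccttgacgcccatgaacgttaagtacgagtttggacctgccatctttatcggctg
Ocln A_52_P608097, chr13:97627594-97628787, minus strand: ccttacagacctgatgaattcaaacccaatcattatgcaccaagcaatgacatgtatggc
Tjp1 A_52_P60338, chr7:61171235-61171294, minus strand: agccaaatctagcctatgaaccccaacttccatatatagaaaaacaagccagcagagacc
Each is 60 bases long. The Cldn7 probe covers 310 bases of the genome and the Ocln probe 1194, so both cross a stretch that is absent from the spliced RNA, while the Tjp1 probe covers 60. The second Ocln probe, A_51_P486150 (chromosome 13, 97585859 to 97585918), lies 41675 bases away from the first, and the second Tjp1 probe, A_51_P390739 (chromosome 7, 61154784 to 61154843), lies 16391 bases away. Both genes are on the minus strand, so the second probe of each is the one nearer the end of the transcript. The 2 probes of Cldn1 (chromosome 16, minus strand, from 26020464 and from 26018826) lie 1578 bases apart.

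None of the 12 probes passed the test for a difference between genotypes. In limma, 0 of 12 had an unadjusted p under 0.05 and 0 of 12 an adjusted p under 0.05, against 5.62% and 0.00243% of all 41174 probes. The share of all probes with an unadjusted p under 0.05 depended on single arrays, at 14.4% without hNAG-1 5 and 2.82% without hNAG-1 2, and 215 probes had an adjusted p under 0.05 without hNAG-1 5, where 1 of the 12 had an unadjusted and 0 an adjusted p under 0.05. The methods' test also gave 0 of 12, against 4.87% of all probes. By direction, 0 of 12 were higher and 0 of 12 lower at an unadjusted p under 0.05, against 1.2% and 4.42% of all probes, and of the 11 probes that were well above background throughout 0 had such a p, against 3.87% of 23089 probes of that kind. The genotypes overlapped for all 12 probes, whereas they did not overlap for 1.38% of all probes. The log2 difference was above 0 for 8 probes and below 0 for 4, the median was 0.10 beside -0.01 over all probes, and the lowest adjusted p was 0.654. The number of probes above 0 depended on the scaling, at 11 of 12 with arrays scaled to their medians and 3 of 12 without scaling. Of the 12 probes, 11 were well above background on all 9 arrays, 0 were saturated and 0 carried an outlier flag. A p that misses the threshold does not show equal levels, so the interval of each difference is given. The narrowest 95% intervals were those of Tjp1 A_51_P390739, from 0.75-fold to 1.31-fold, and F11r, from 0.81-fold to 1.41-fold, and the widest was that of Cldn1 A_51_P481958, from 0.41-fold to 2.41-fold.

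**Figure D1:**
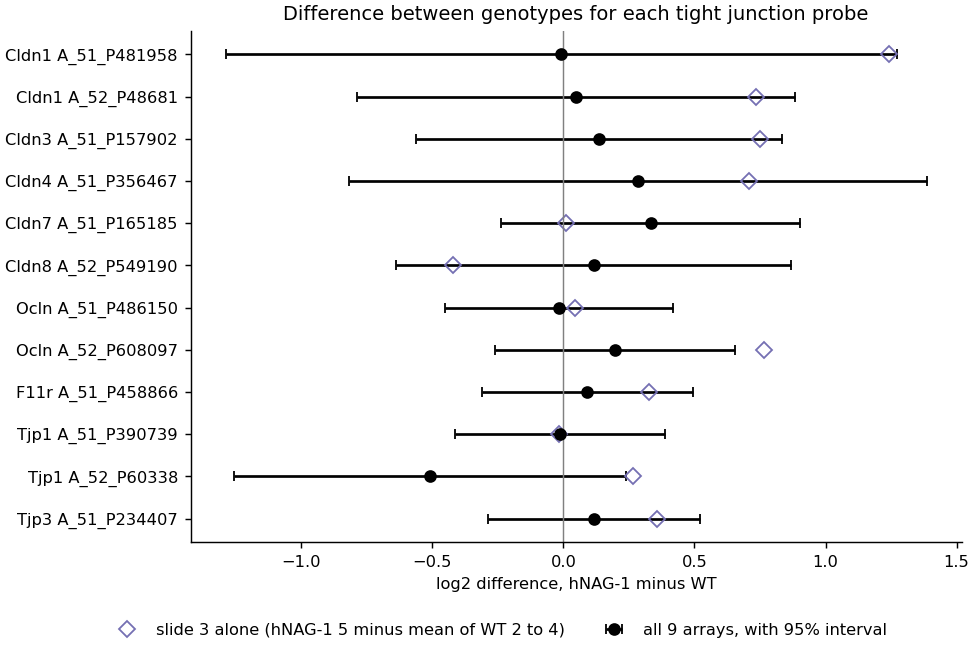
Log2 difference between hNAG-1 and WT for each of the 12 probes (filled points for all 9 arrays, bars for the 95% interval from limma), with the difference within slide 3 as open diamonds. Every interval covers 0, and the slide 3 values lie above the 9-array value for 9 probes, Cldn7, Cldn8 and Tjp1 A_51_P390739 being the exceptions. Ocln A_52_P608097 was near background on all but 1 array.

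Cldn1, a barrier claudin found in many epithelia, varied widely between dams in both genotypes. With probe A_51_P481958 the scaled intensities of WT 1 to 4 were 331, 268, 104 and 95.6, and those of hNAG-1 1 to 5 were 70.9, 234, 280, 97.3 and 328. WT 1, WT 2, hNAG-1 2, hNAG-1 3 and hNAG-1 5 were high and the other 4 dams low, so each genotype held both levels. WT dams had a mean of 200 ± 118 (SD, n = 4) and hNAG-1 dams one of 202 ± 113 (SD, n = 5), a log2 difference of -0.01 ± 0.57 (SE, limma adjusted p = 0.997, exact permutation p = 0.984). Probe A_52_P48681 gave 285, 193, 121 and 141 in WT and 102, 247, 257, 121 and 247 in hNAG-1, with the highest array (WT 1) and the lowest (hNAG-1 1) as for the first probe. Its log2 difference was 0.05 ± 0.37 (SE, limma adjusted p = 0.973).

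Cldn3 and Cldn4, sealing claudins of simple and glandular epithelia, are neighbors on chromosome 5, where their probes (from 133958589 on the plus strand and from 133916757 on the minus strand) lie 41772 bases apart. Cldn3 had scaled intensities of 10818, 8448, 7333 and 10751 in WT 1 to 4 and of 8509, 6707, 17225, 7395 and 14678 in hNAG-1 1 to 5. Cldn4 had 94.7, 88.2, 226 and 232 in WT and 128, 93.9, 391, 133 and 272 in hNAG-1. For both genes hNAG-1 3 was the highest array and hNAG-1 5 the next, above every WT array, while the other 3 hNAG-1 arrays lay within or below the WT range. WT 1 and WT 2 were low for Cldn4, whereas WT 1 was the highest WT array for Cldn3. The log2 differences were 0.14 ± 0.31 for Cldn3 (SE, limma adjusted p = 0.890, exact permutation p = 0.667) and 0.28 ± 0.49 for Cldn4 (SE, limma adjusted p = 0.851, exact permutation p = 0.651). Without hNAG-1 3 they were -0.055 and -0.0046, and Cldn4 was 0.079 without WT 1 and 0.046 without WT 2.

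Cldn7, a claudin that also lies along the lateral membrane of epithelial cells, had the largest positive difference of the 12 probes. Its scaled intensities were 28166, 14493, 31074 and 30331 in WT 1 to 4 and 36696, 36005, 30832, 31106 and 24050 in hNAG-1 1 to 5. WT 2 was far below the other WT arrays, and hNAG-1 1, hNAG-1 2 and hNAG-1 4 were above every WT array, the last of them by little. The means were 26016 ± 7781 (SD, n = 4) and 31738 ± 5077 (SD, n = 5), a log2 difference of 0.33 ± 0.25 (SE, limma adjusted p = 0.654, exact permutation p = 0.206). Without WT 2 the difference was 0.073.

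Cldn8, a claudin of sealing strands in the distal nephron and other epithelia, had scaled intensities of 16671, 9981, 30038 and 27055 in WT 1 to 4 and of 24955, 24128, 17520, 24515 and 15004 in hNAG-1 1 to 5. All hNAG-1 values lay within the WT range, which ran over 3.01-fold. The log2 difference was 0.12 ± 0.33 (SE, limma adjusted p = 0.917, exact permutation p = 0.778) with all arrays and -0.20 without WT 2. On WT 2 the log2 intensity of Cldn8 was -1.01 and that of Cldn7 -0.97 relative to their means over 9 arrays, beside -0.51 for the luminal epithelium markers. The part of cell makeup in these values was not tested.

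Ocln encodes occludin, a tetraspan protein of the junction strands. Probe A_51_P486150 gave 861, 552, 552 and 651 in WT 1 to 4 and 546, 735, 784, 549 and 602 in hNAG-1 1 to 5. The 5 hNAG-1 values lay close to the WT range, with WT 1 the highest array. The log2 difference was -0.02 ± 0.19 (SE, limma adjusted p = 0.983, exact permutation p = 0.929). Probe A_52_P608097, printed above, was not well above background on any WT array and was so on 1 of 5 hNAG-1 arrays. Its scaled intensities were 28.7, 24.9, 25.8 and 29.4 in WT and 29.3, 21.9, 31.9, 31.4 and 45.2 in hNAG-1, with hNAG-1 5 the highest array (limma adjusted p = 0.741). At this brightness no fold between the genotypes is given.

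F11r encodes JAM-A, an immunoglobulin-type adhesion protein of the belt. Its probe A_51_P458866 (chromosome 1, 171433810 to 171433869) gave 43745, 27485, 28522 and 31704 in WT 1 to 4 and 29638, 37256, 38612, 30836 and 36563 in hNAG-1 1 to 5. Here too WT 1 was the highest array, and all hNAG-1 arrays lay inside the WT range. The means were 32864 ± 7473 (SD, n = 4) and 34581 ± 4055 (SD, n = 5), a log2 difference of 0.09 ± 0.18 (SE, limma adjusted p = 0.871, exact permutation p = 0.579). It was 0.24 without WT 1 and 0.013 without WT 2.

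Tjp1 encodes ZO-1, the scaffold that binds claudins, occludin and JAM-A inside the cell. Probe A_51_P390739 gave 1148, 691, 800 and 810 in WT 1 to 4 and 924, 828.5, 952, 754 and 756 in hNAG-1 1 to 5, all hNAG-1 arrays again inside the WT range. Its log2 difference was -0.01 ± 0.18 (SE, limma adjusted p = 0.985, exact permutation p = 0.952). Probe A_52_P60338, farther from the transcript's end, gave 145, 108, 224 and 106 in WT and 131, 67.6, 72.4, 84.3 and 165 in hNAG-1. On this probe hNAG-1 2, hNAG-1 3 and hNAG-1 4 lay below every WT array, and hNAG-1 1 and hNAG-1 5 lay among them. Its log2 difference of -0.51 ± 0.33 was the largest negative one of the 12 probes (SE, limma adjusted p = 0.654, exact permutation p = 0.190). It was -0.28 without WT 3, -0.70 without hNAG-1 5 and -0.18 with normexp background correction. The 2 probes of Tjp1 thus gave different values, and the difference between them was not tested.

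Tjp3 encodes ZO-3, a ZO scaffold restricted to epithelia. Its probe A_51_P234407 (chromosome 10, 81065802 to 81065861) gave 9626, 5884, 8071 and 7355 in WT 1 to 4 and 8610, 6828, 9415, 7679 and 9012 in hNAG-1 1 to 5. WT 1 was the highest array and WT 2 the lowest, with every hNAG-1 array between them. The log2 difference was 0.12 ± 0.18 (SE, limma adjusted p = 0.831, exact permutation p = 0.492) and -0.0077 without WT 2.

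**Figure D2:**
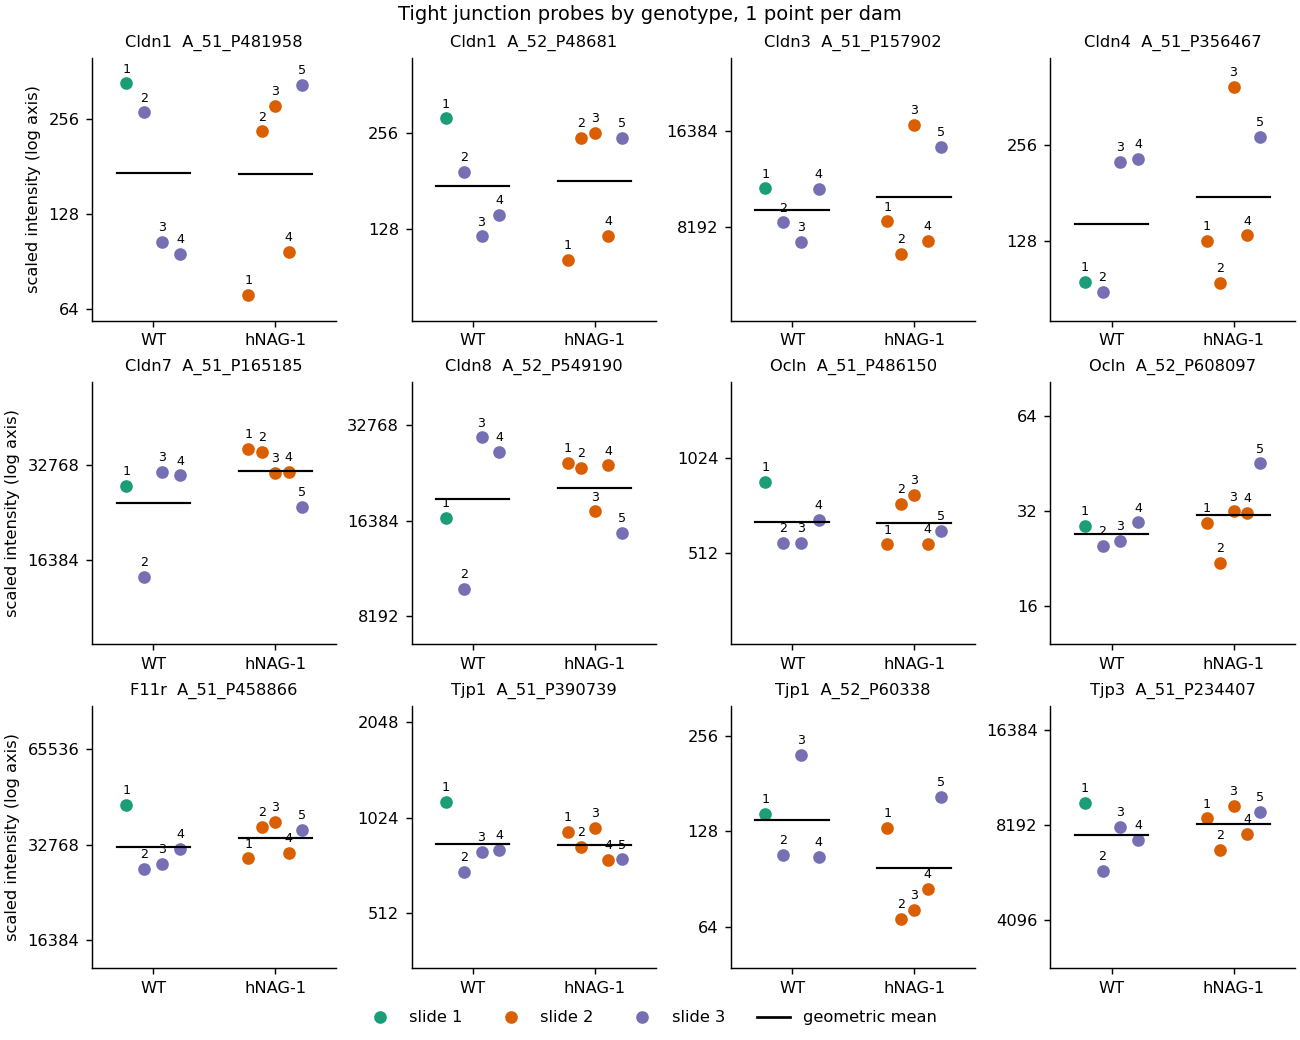
Scaled intensity (log axis, each array's 75th percentile = 1000) of the 12 probes in WT and hNAG-1, 1 point per dam with the dam's number, colored by slide, and black lines are geometric means. The genotypes overlap in every panel, and Cldn1 A_51_P481958 and Cldn4 spread most among the hNAG-1 dams, by 4.63-fold and 4.17-fold.

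The genes differed in how far dams of one genotype lay apart. The pooled within-genotype SD of log2 intensity was 0.96 for Cldn1 A_51_P481958, 0.82 for Cldn4 and 0.61 for Cldn1 A_52_P48681, against a median of 0.28 over the 23089 probes well above background on all arrays. These values stood at the 97.9, 96.5 and 91.4 percentiles of those probes. In contrast the pooled SD was 0.24 for Tjp1 A_51_P390739, Tjp3 and F11r and 0.27 for Ocln A_51_P486150, at or below the 47.2 percentile. Without WT 1, the highest array for both, the SDs of Tjp1 A_51_P390739 and F11r were each 0.15, beside a median of 0.28. Tjp1 A_52_P60338 stood at 0.54 and Cldn3 at 0.50. The pooled SD of Cldn7 was 0.39 with all arrays and 0.20 without WT 2, where the median over the same 23089 probes was 0.26, and that of Cldn8 was 0.54 with all arrays and 0.38 without WT 2.

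Cldn1 and Cldn8 lay on opposite sides of their means in 8 of the 9 dams, hNAG-1 2 being above both, a pattern chosen after their values were seen and given here without a test. The ratio of the Cldn8 probe to Cldn1 A_51_P481958, which no scaling of an array can change, was on the log2 scale and relative to its mean 1.59 in hNAG-1 1, 1.30 in WT 3, 1.28 in WT 4 and 1.11 in hNAG-1 4. It was -1.65 in WT 2, -1.35 in hNAG-1 5, -1.21 in WT 1, -0.90 in hNAG-1 3 and -0.18 in hNAG-1 2. High and low dams were found in both genotypes and on both slide 2 and slide 3.

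**Figure D3:**
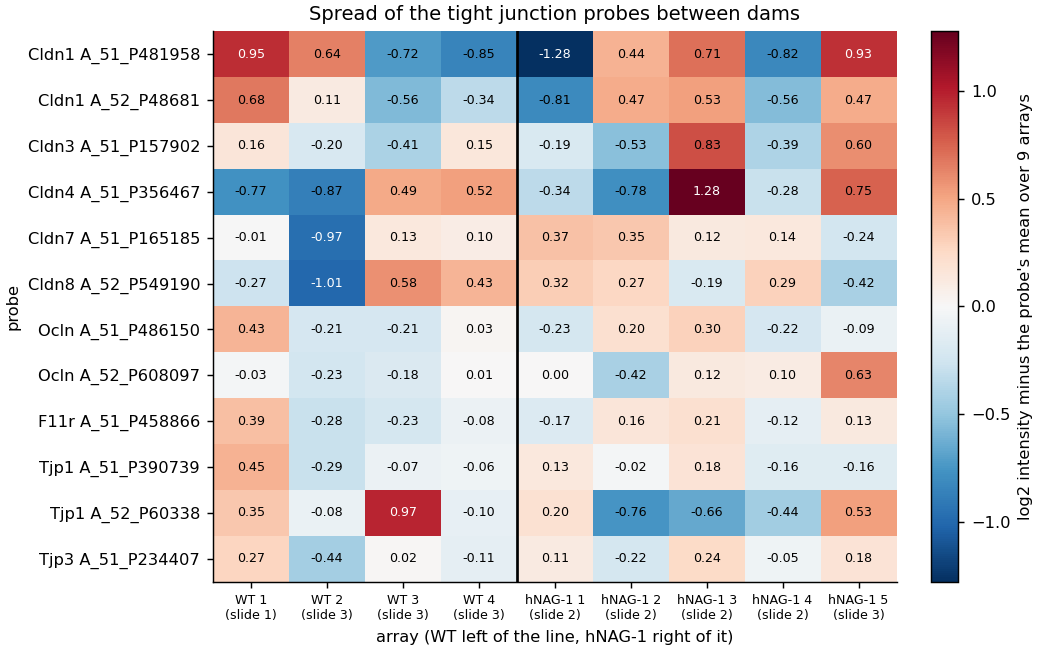
Log2 intensity of each probe on each array minus the probe's mean over the 9 arrays (color and number), WT left of the line and hNAG-1 right of it, with the slide under each array. Cldn1 is high and Cldn8 low on WT 1, WT 2, hNAG-1 3 and hNAG-1 5, Cldn3 and Cldn4 are highest on hNAG-1 3, and Cldn7 and Cldn8 are lowest on WT 2.

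Slide and genotype were partly confounded, since slide 3 alone held both. With slide as a fixed block, which leaves hNAG-1 5 against WT 2, WT 3 and WT 4, the log2 difference was 1.24 for Cldn1 A_51_P481958, 0.73 for Cldn1 A_52_P48681, 0.75 for Cldn3 and 0.71 for Cldn4. The same fit gave 0.01 for Cldn7, -0.42 for Cldn8, 0.27 for Tjp1 A_52_P60338, 0.36 for Tjp3 and 0.33 for F11r. Of the 12 probes 1 had an unadjusted p under 0.05, beside 7.58% of all probes in that fit. It was Ocln A_52_P608097, the probe that was well above background on 1 array. The hNAG-1 arm of this difference is hNAG-1 5 alone, assumed to vary like the others. The fit's error pools the spread of hNAG-1 1 to 4 (slide 2) and of WT 2 to 4 (slide 3). The median in that fit was 0.19 over all probes and 0.09 over those well above background on all arrays, and that of the 12 probes was 0.34.

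The other junction genes were compared in the same way. In 3 lists of other claudins, of other tight junction and polarity genes, and of adherens junction and desmosome genes, 59 genes had a probe, and with the brightest probe of each gene 37 were higher and 22 lower in hNAG-1, with a median of 0.08. An unadjusted p under 0.05 was reached by 2 of 59, beside 5.62% of all probes in either direction. Both were higher in hNAG-1, beside 1.2% of all probes in that direction, and an adjusted p under 0.05 was reached by 0 of 59.

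Both of these were claudins, for which less is known than for the genes above. Cldn22 was picked by the study as increased on these same arrays, so its direction is not independent evidence. It had 84.2, 158, 323 and 422 in WT 1 to 4 and 418, 767, 471, 424 and 510 in hNAG-1 1 to 5, with WT 4 among the hNAG-1 values and WT 1 and WT 2 far lower. The log2 difference was 1.29 ± 0.44 (SE, limma adjusted p = 0.654, exact permutation p = 0.0159), and 0.88 with slide as a fixed block. Cldn23 had 172, 164, 224 and 259 in WT and 220, 267, 497, 315 and 308 in hNAG-1, 4 of 5 hNAG-1 arrays being above every WT array. Its log2 difference was 0.62 ± 0.25 (SE, limma adjusted p = 0.654, exact permutation p = 0.0397), and 0.54 with slide as a fixed block. Neither had an unadjusted p under 0.05 with slide as a fixed block or without scaling, and Cldn23 also lost it relative to the luminal epithelium markers and without any of 5 single arrays.

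Of the other 14 claudins with a probe, Cldn18, a claudin of lung and stomach, had the lowest fitted difference, -1.87 ± 1.06 (SE, limma adjusted p = 0.654). It was well above background on 4 of 4 WT and 3 of 5 hNAG-1 arrays, with 79.4, 9.77, 54.3 and 11.9 on hNAG-1 1 to 4, 574 on hNAG-1 5 and 138 to 212 in WT. An outlier flag was set for this probe on 1 array. The values on hNAG-1 2 and hNAG-1 4 lay under the lowest intensity well above background there (35.0 and 41.7), so the size of the difference is not measured. The fitted value was -2.75 without hNAG-1 5 (limma, unadjusted p = 0.0027, adjusted p = 0.097) and 1.66 with that array set against WT 2, WT 3 and WT 4 by slide as a fixed block. Cldn5, the claudin of endothelium, gave -0.10 ± 0.26 (SE, limma adjusted p = 0.906), with values on either side of 0 as single arrays were left out, from -0.28 without WT 3 to 0.042 without hNAG-1 4, and 0.22 with slide as a fixed block. Only 9 of the 16 claudins were well above background on all 9 arrays, against 26 of 26 and 17 of 17 genes in the other lists.

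Among 26 tight junction and polarity genes, 16 were higher and 10 lower with a median of 0.05, and 0 had an unadjusted p under 0.05. The highest value was that of Amotl1 (0.37 ± 0.21, SE, and 0.26 without hNAG-1 3), an angiomotin family protein. Without hNAG-1 1 Amotl1 was 0.48 (limma, unadjusted p = 0.038), beside 6.91% of all probes under 0.05. The lowest value was that of Jam3 (-0.51 ± 0.45, SE), a relative of JAM-A for which WT 2 had 2562 and the other WT arrays 517 to 592. Without WT 2 the sign turned, and Jam3 was 0.04. Among 17 adherens junction and desmosome genes, 14 were higher and 3 lower with a median of 0.20, and again 0 had an unadjusted p under 0.05. They ranged from -0.11 for Nectin1, a nectin of adherens junctions, which was 0.071 without WT 1 and -0.30 without WT 2, to 0.50 for Dsp, the desmosomal plaque protein desmoplakin, which was 0.09 without WT 2. Without that array the medians of these 2 lists were -0.01 and 0.04. Of 56 probes of the 59 genes other than the brightest, 4 (7.14%) had an unadjusted p under 0.05, beside 5.62% of all probes. They were Jam2 (-0.51) and Pard6b (0.51), whose brightest probes gave 0.22 and 0.33, and 2 probes of Pard3, both lower in hNAG-1 and well above background on only 4 of 5 and 2 of 5 hNAG-1 arrays, beside 0.06 for its brightest probe.

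**Figure D4:**
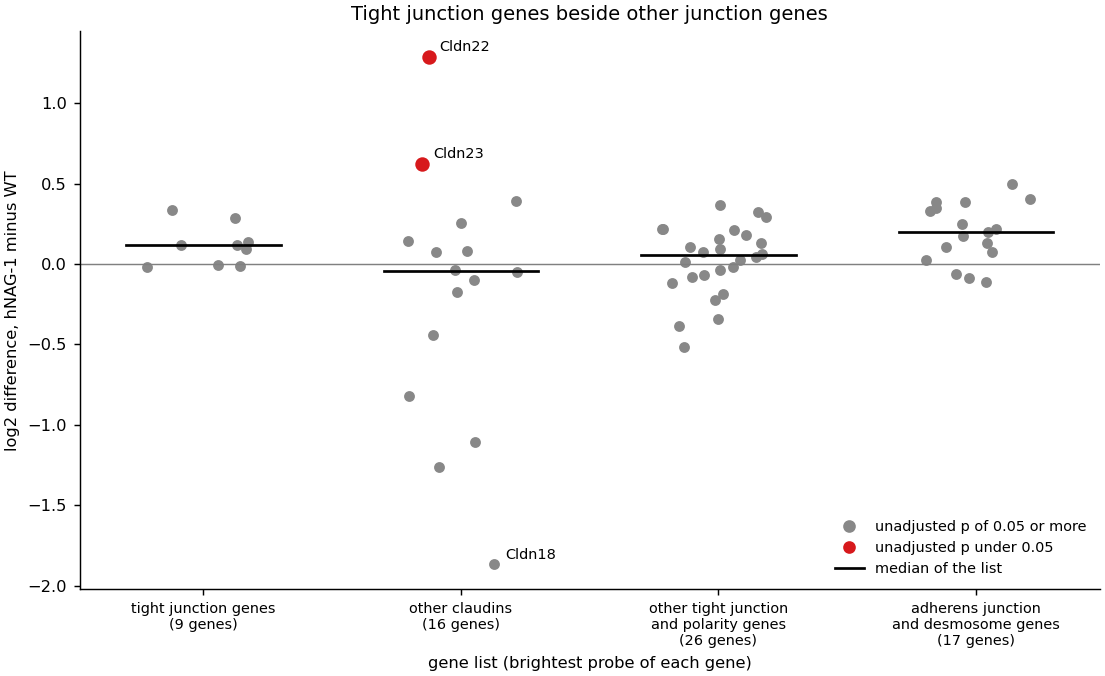
Log2 difference between hNAG-1 and WT for the brightest probe of each gene in 4 lists. Each point is a gene, red points have an unadjusted p under 0.05 in limma, and black lines are the medians. The 9 genes lie between -0.02 and 0.33, a narrower range than that of the other claudins, from -1.87 for Cldn18, which includes arrays under background, to 1.29 for Cldn22, and no test was made of that difference in range.

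Markers of the cell types of the gland were set beside these values. Of all probes, 5.62% had an unadjusted p under 0.05 in limma, with 1.2% higher and 4.42% lower in hNAG-1. Of 10 luminal epithelium markers 9 were higher in hNAG-1 (median 0.13), and 1, the mucin Muc1, had an unadjusted p under 0.05 (0.61 ± 0.23, SE), while Ehf, an epithelial transcription factor, had the only negative value (-0.22), which was -0.013 without WT 1 and 0.61 with slide as a fixed block. Their summed intensity ran from 288399 to 532908 in WT and from 371855 to 507123 in hNAG-1. Of 8 milk protein genes 7 were higher, with a median of 0.06 and a range from -0.03 for Glycam1 to 0.35 for Lalba (α-lactalbumin). With an array left out Lalba ran from 0.21 (hNAG-1 2) to 0.44 (hNAG-1 1). The milk protein sums ran from 2469488 to 4493830 in WT and from 2982046 to 4637340 in hNAG-1. Of 8 myoepithelial markers 8 were higher (median 0.35), Myh11, a smooth muscle myosin, with an unadjusted p under 0.05 (0.48 ± 0.16, SE) and Krt17, a keratin, with a like value (0.48 ± 0.34, SE). Their sums were 88220 to 193029 in WT and 157722 to 211599 in hNAG-1. Without WT 2, 3 of 10 luminal markers, 2 of 8 milk protein genes and 7 of 8 myoepithelial markers were higher, with medians of -0.02, -0.10 and 0.12, and Muc1 had 0.52 (limma, unadjusted p = 0.071), Krt17 0.12 and Glycam1 -0.21. Muc1 also missed an unadjusted p under 0.05 without hNAG-1 3 (0.57) and, like Myh11, with slide as a fixed block (0.29 and 0.28). That fit gave medians of 0.31 for the luminal list, -0.0018 for the milk protein list and 0.18 for the myoepithelial list. These 3 lists mark epithelial cells, and their lowest sum was in each case that of a WT array.

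Cells without epithelial junctions gave the following. Of 8 adipocyte markers 8 were higher, with a median of 0.38, up to 1.00 for Retn (resistin), and sums of 685235 to 1242695 in WT and 937384 to 1217715 in hNAG-1. Without WT 1, 6 of 8 were higher, the median was 0.07 and Retn was 0.50. Of 8 endothelial markers 7 were higher, with a median of 0.21, from -0.31 for Vwf (von Willebrand factor) to 0.48 for Tie1 (a receptor kinase), and sums of 12095 to 14070 and 11370 to 17587. With an array left out Tie1 ran from 0.36 (hNAG-1 3) to 0.59 (hNAG-1 1). Its unadjusted p without hNAG-1 1 was 0.031 in limma, beside 6.91% of all probes under 0.05. With slide as a fixed block the adipocyte median was 0.14, and the sign of the endothelial one turned, to -0.18. In that fit Vwf was -0.75 and Tie1 0.33. All 8 lymphocyte markers were lower, with a median of -1.15 and sums of 3164 to 61229 in WT and 2468 to 11921 in hNAG-1. Of them 1, Cd2, an adhesion protein of T cells, had an unadjusted p under 0.05 (-1.50 ± 0.66, SE), beside 4.42% of all probes in that direction. The values of this list ran from -1.52 for Cd79b, of the B cell receptor, to -0.17 for Cd3e, of the T cell receptor, and 6 of the 8 were well above background on all arrays. Without WT 2, 7 of 8 were lower with a median of -0.28, Cd2 was -0.78 (limma, unadjusted p = 0.106), Cd79b -0.28 and Cd3e -0.020. Cd2 also missed an unadjusted p under 0.05 without WT 1, hNAG-1 1, hNAG-1 2 or hNAG-1 3 (-1.62 to -1.29). With slide as a fixed block the median was -0.71 and Cd2, at -0.93, missed an unadjusted p under 0.05. No adjusted p in these lists was under 0.05, and the part of cell makeup in the junction values was not tested. Relative to the luminal epithelium markers, the median log2 difference of the 12 probes was -0.07, and 3 of 12 were higher in hNAG-1.

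**Figure D5:**
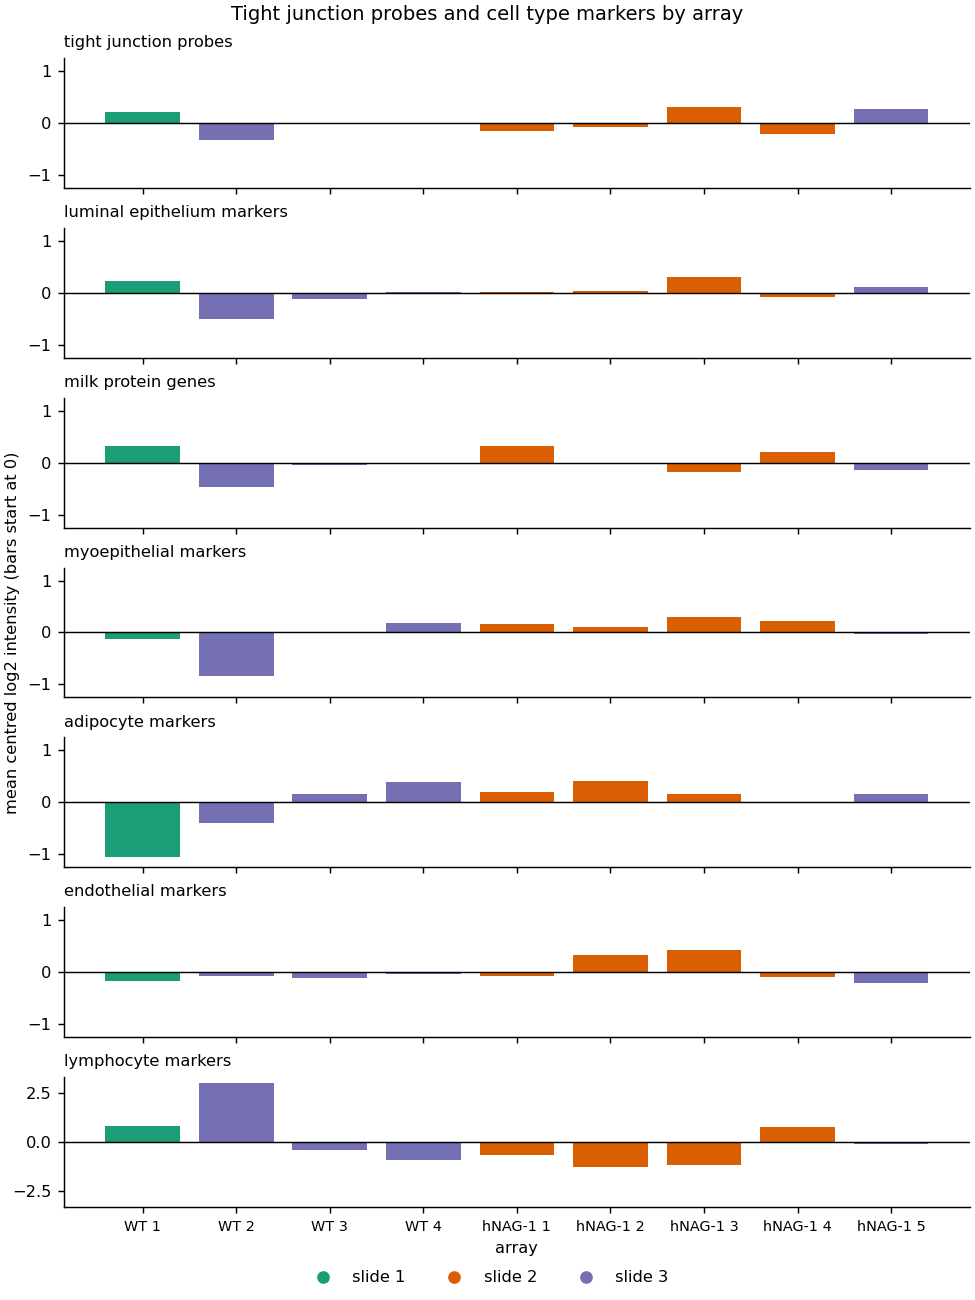
Mean centered log2 intensity of the 12 tight junction probes and of 6 marker lists on each array, colored by slide (bars start at 0, and the lymphocyte axis is longer). The tight junction probes range from -0.32 on WT 2 to 0.30 on hNAG-1 3, and WT 2 is lowest for luminal, milk protein and myoepithelial markers and highest, at 3.01, for lymphocyte markers.

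The mean centered profile of the 12 probes was 0.22, -0.32, -0.02 and -0.02 on WT 1 to 4 and -0.16, -0.07, 0.30, -0.21 and 0.28 on hNAG-1 1 to 5. WT 2 was thus the lowest array and hNAG-1 3 the highest. Of 22921 probes outside all lists and well above background on all arrays, those with the nearest profile over the 9 arrays were AU041783, Wbp1 and Rcc2, with root mean square differences of 0.06, 0.07 and 0.07 on the log2 scale.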

How the data were processed

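Gland number 4 of each of 4 WT and 5 hNAG-1 dams gave RNA for 1 Agilent array. The authors deposited the scanner output of Feature Extraction version 9.5, in which each feature has a background-subtracted intensity without scaling between arrays, and a value table that equals it (largest difference 0). Everything else was computed here.

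Of 45018 features, 1639 controls were left out and replicate features were averaged, which gave 41174 probes. Intensities were scaled so that the 75th percentile of each array was 1000, and log2 was taken. The comparison of genotypes used lmFit and eBayes of limma 3.58.1 under R 4.3.3 (two-sided, 7 residual degrees of freedom), with Benjamini-Hochberg adjustment over 41174 probes and a threshold of 0.05. Exact two-sided permutation tests covered each of the 126 ways to split the arrays, with a smallest possible p of 0.00794. The fit was tested on simulated data. Depth does not apply to arrays, and their number limits the precision. The dams are separate animals.

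The lowest scaled intensity well above background was 18.9 to 41.7 on single arrays. Groups come from the labels. Gene names are those of the array design, and positions those of its build, mm7. Of 121 genes in 10 lists, 118 had a probe, 17 of them by an older symbol or an accession of a RefSeq table used for names only. Cldn20, Cldn24 and Cldn25 had none. The brightest probe of a gene by its mean over all arrays was used in the lists.

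Named were all probes of the 9 genes, in each other list the genes with an unadjusted p under 0.05 and the highest and lowest difference, Cldn22, Cldn5, and the 3 nearest profiles. The genes and lists were chosen with earlier results of these data known. Alternatives were quantile normalization, normexp correction of the background (offset 50), scaling to the median, no scaling, the value table, a filter on dim probes, slide as a block (fixed or random), the arrays of slide 3 alone, the methods' test, a replicate block, the mean of a gene's probes and each array left out. Outlier flags left out and values relative to luminal epithelium markers were added after the data were seen.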

Additional observations from a re-analysis of the deposited data

Results flagged for a closer look

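In groups of 4 and 5 arrays, the highest or lowest array was compared with the rest of its genotype by the gap to its nearest neighbor as a share of the whole range. Of 82 groups, 5 were past the 95% critical value. Some genes were named for the size of their difference in these data and the groups share arrays. A chance rate of 1 in 20 therefore does not apply. Cldn7 on WT 2 was the lowest of the WT arrays, at 14493 against 28166 to 31074 on the others, a gap of 0.871 of the range. Dsp was lowest on the same array, at 241 against 731 to 762 (0.964 of the range), and Jam3 highest, at 2562 against 517 to 592 (0.916). These 3 lie on the array with the highest lymphocyte and lowest epithelial marker means, and the part of cell makeup in them was not tested. In hNAG-1 4, Dsp was the highest of its genotype, at 1689 against 585 to 729 (0.792). The mean centered log2 intensity of the other claudins was highest of the WT arrays in WT 4, at 0.30 against 0.02 to 0.05 (0.888).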

How the results depend on the processing

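Of the 12 probes, 0 had an adjusted p under 0.05 in limma under any alternative. The count with an unadjusted p under 0.05 was 1 with quantile normalization, median scaling, slide as a fixed block and slide 3 alone, each time the Ocln probe near background, beside 6.36%, 8.76%, 7.58% and 8.99% of all probes, and 0 to 1 with an array left out, where the 1 was Tjp1 A_52_P60338 (-0.70, limma, unadjusted p = 0.049) without hNAG-1 5, beside 14.4% of all probes. The median of the 12 was 0.34 with slide as a fixed block and with slide 3 alone, and -0.03 to 0.22 with an array left out. Scaling moved the median of all probes to 0.20 (median scaling, 11 of 12 probes higher), -0.16 (no scaling, 3 of 12) and -0.19 (relative to luminal markers, 3 of 12), from -0.01 (8 of 12). With slide as a fixed block it was 0.19 (10 of 12), and 0.09 over the probes well above background on all arrays.

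Of the 50 sign changes, none was in a value past the threshold. With median scaling Cldn1 A_51_P481958 was 0.20, Ocln A_51_P486150 0.19 and Tjp1 A_51_P390739 0.20, and with quantile normalization they were 0.15, 0.0036 and 0.0024. With normexp Cldn1 was 0.10 and Ocln 0.026. With no scaling Cldn1 A_52_P48681 was -0.10, Cldn3 -0.013, Cldn8 -0.034, Tjp3 -0.034 and F11r -0.059, and relative to luminal markers they were -0.13, -0.036, -0.057, -0.057 and -0.082. With slide as a fixed block and with slide 3 alone Cldn1 A_51_P481958 was 1.24, Cldn8 -0.42, Ocln A_51_P486150 0.045 and Tjp1 A_52_P60338 0.27. With slide as a random block Cldn1 was 0.054. With an array left out the ranges that crossed 0 were -0.29 to 0.31 and -0.13 to 0.28 (Cldn1), -0.055 to 0.29 (Cldn3), -0.0046 to 0.51 (Cldn4), -0.20 to 0.33 (Cldn8), -0.092 to 0.12 (Ocln), -0.11 to 0.13 (Tjp1) and -0.0077 to 0.23 (Tjp3).

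The count of other junction genes with an unadjusted p under 0.05 was 4 (median scaling, beside 8.76% of all probes), 1 (no scaling, 5.02%), 0 (slide as a fixed block, 7.58%), 7 (replicate block, which leaves out hNAG-1 5, 13.1%) and 1 to 4 with an array left out, against 2 (5.62%). It was 1 without WT 1 (4.98%) and hNAG-1 3 (3.66%), and 4 without WT 3 (3.95%), hNAG-1 1 (6.91%) and hNAG-1 5 (14.4%). With quantile normalization (6.36%) and with outlier flags left out (5.55%) the count was 3. Their median was 0.29 (median scaling), -0.073 (no scaling), -0.10 (relative to luminal markers) and 0.00 to 0.17 with an array left out. Cldn22 kept an unadjusted p under 0.05 with each array left out (0.86 to 1.63) and lost it with no scaling (1.14), slide as a fixed block and slide 3 alone (0.88). Cldn23 lost it in the same 3 fits (0.47, 0.54 and 0.54), relative to luminal markers (0.45), and without WT 1, WT 2, hNAG-1 3, hNAG-1 4 or hNAG-1 5 (0.45 to 0.62).

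Deviations of same-numbered dams of the genotypes correlated with r from -0.31 to 0.28, beside -0.27 to 0.35 for dams of unlike number. These few values cannot exclude a pairing, and the numbers were not taken as pairs. A replicate block over dams 1 to 4 gave a median of 0.04, 0 of 12 probes with an unadjusted p under 0.05, Cldn1 A_52_P48681 at -0.066, Ocln at 0.0037 and Tjp1 at 0.024, and 7 other junction genes. Over all probes it gave 5407 with an unadjusted p under 0.05. The block leaves out hNAG-1 5, and without that array and without the block the counts were 4 other junction genes and 5909 probes, against 2 and 2315 with all arrays. The causes were not tested.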
